A study of Rattus norvegicus with 8 samples.

Results

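Gene expression of cells carrying a PPARα receptor altered at serine 280 was set against that of cells carrying the unaltered receptor, to find genes that either substitution shifted in the same direction. The comparison covered 6 of the 8 libraries of the series, which were 4 with a mutant receptor and 2 with the wild-type receptor (WT). In the S280A group the serine was replaced by alanine, a form described in the labels as phospho-resistant, and in the S280D group by aspartate, a form described as phospho-mimicking. Each mutant and WT had 2 libraries, as did the control transduced with YFP alone. All libraries came from H9C2, a rat cardiomyoblast line from embryonic heart, transduced for 2 days with a pDC316 vector. In WT and the mutants the receptor was fused to YFP. Whether replicate libraries were grown as separate cultures is not in the labels. The p-values therefore rest on the spread between the deposited libraries, which may be technical. Of 12407 genes tested, 13 passed the test for the mean of the mutants against WT and had all 4 mutant libraries on one side of both WT libraries.

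PPARα is a nuclear receptor that pairs with RXR, binds DNA and is known for switching on genes of fatty acid uptake and oxidation, above all in liver and heart. It is also known to dampen inflammatory transcription through contacts with other factors, among them NF-κB. NF-κB is held in the cytoplasm by IκB proteins and, once freed by cytokine signals, switches on chemokines, adhesion molecules and its own inhibitors. Interferons act through STAT and IRF factors, which bind their own short elements and switch on antiviral proteins, guanylate-binding GTPases and class I antigen presentation.

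Promoters are shown for the 4 genes that passed the test in each mutant alone, and for Rsad2 and Epsti1 as genes known to respond to interferon. The sequences are from RefSeq, build GRCr8, cover 250 bases before the start of the gene and 50 after it, and run 5′ to 3′ on the strand of the gene. Capitals mark matches on either strand to the NF-κB consensus or to GAAA given in tandem with 2 bases between, the repeat found in interferon-stimulated response elements.
Cxcl1, chr14:17479272-17479571, reverse strand: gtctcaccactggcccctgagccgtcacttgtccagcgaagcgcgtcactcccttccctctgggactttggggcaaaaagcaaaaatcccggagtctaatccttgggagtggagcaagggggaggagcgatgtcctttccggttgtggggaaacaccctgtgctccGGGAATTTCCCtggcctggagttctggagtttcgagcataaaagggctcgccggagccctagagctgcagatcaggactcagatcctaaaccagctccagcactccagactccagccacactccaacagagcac
Nfkbiz, chr11:58251471-58251770, forward strand: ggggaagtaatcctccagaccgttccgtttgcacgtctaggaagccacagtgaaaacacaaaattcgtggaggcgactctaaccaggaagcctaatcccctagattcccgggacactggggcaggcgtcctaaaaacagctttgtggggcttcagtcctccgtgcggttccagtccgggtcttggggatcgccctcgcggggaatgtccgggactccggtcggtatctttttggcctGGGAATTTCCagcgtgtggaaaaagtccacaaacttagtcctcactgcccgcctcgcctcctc
Zc3h12a, chr5:142669936-142670235, reverse strand: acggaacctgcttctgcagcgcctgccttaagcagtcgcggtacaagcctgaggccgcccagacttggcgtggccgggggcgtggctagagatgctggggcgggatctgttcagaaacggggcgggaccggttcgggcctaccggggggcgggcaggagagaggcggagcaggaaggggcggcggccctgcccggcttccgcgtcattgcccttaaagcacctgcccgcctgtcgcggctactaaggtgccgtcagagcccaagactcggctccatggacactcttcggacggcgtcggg
Gbp5, chr2:233910749-233911048, forward strand: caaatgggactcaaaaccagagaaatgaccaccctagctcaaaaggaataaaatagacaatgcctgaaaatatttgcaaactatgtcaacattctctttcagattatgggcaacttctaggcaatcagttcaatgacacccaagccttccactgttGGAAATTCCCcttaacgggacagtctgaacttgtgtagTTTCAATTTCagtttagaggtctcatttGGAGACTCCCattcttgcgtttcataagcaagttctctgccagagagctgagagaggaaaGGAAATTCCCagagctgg
Rsad2, chr6:48788071-48788370, reverse strand: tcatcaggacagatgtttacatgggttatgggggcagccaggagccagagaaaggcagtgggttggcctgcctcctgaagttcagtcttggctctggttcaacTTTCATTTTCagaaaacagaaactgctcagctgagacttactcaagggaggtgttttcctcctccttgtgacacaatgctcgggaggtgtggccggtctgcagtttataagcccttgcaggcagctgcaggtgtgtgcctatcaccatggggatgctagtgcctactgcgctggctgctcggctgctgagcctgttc
Epsti1, chr15:59693151-59693450, forward strand: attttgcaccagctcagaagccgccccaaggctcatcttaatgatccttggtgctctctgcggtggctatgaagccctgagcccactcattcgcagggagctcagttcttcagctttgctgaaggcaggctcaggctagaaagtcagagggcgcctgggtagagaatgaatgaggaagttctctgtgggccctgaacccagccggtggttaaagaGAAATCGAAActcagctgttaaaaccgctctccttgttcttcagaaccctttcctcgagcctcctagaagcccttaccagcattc

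Of the 13 genes, 9 had a promoter in the RefSeq table. The NF-κB consensus was found in 3 of these, Cxcl1, Nfkbiz and Gbp5, and in 7.51% of all 33469 promoters of the same length. In Cxcl1 it is read on both strands of 1 capital stretch, whose first match begins 84 bases before the start, and in Nfkbiz the match begins 13 bases before it. Gbp5 held 3 such matches. The GAAA repeat was found in 4 of the 9, Gbp5, Epsti1, Klrk1 and Rsad2, and in 3.92% of all promoters. The STAT-type letters TTC and GAA with 3 bases between were in 0 of the 9 and in 8.87% of all, and the PPAR-type direct repeat of AGGTCA with 1 base between was in 0 of the 9 and in 0.0538% of all. The motifs searched can overlap one another, and a match is a description of letters, not of a bound site.

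RNA selected on poly(A) tails was sequenced, and the deposited table gives reads per gene. Exon reads totalled 14018785 to 39526013 per library, with the largest total in S280D replicate 1. Levels are given as CPM, the reads of a gene set to a common library size and scaled by TMM. Ppara itself had 17400 and 13700 CPM in S280A and 17900 and 17700 CPM in S280D, against 12400 and 24100 CPM in WT and 74.4 and 59.5 CPM in YFP. The mutant libraries lay between the 2 WT libraries, and the log2 fold change of the mutants over WT was -0.13 ± 0.22 (SE, edgeR adjusted p = 0.792). Without WT replicate 2 it was 0.44 (adjusted p = 0.564). The gene lies on chromosome 7, 126619196 to 126681752 (Rnor_6.0), and reads of the delivered and the rat gene were counted together. The column headers place both WT libraries in lane 2, both YFP libraries in lane 1 and 1 library of each mutant in each lane. In a principal component analysis the first component scored the S280A libraries at -19.9 and -51 and the S280D libraries at 47.5 and 27.9, against 31.6 and 20.7 for WT. Of 9 cardiomyocyte markers 7 averaged under 1 CPM, among them Myh6, Myh7 and Nppa, and 5 of 6 skeletal muscle markers did. The fibroblast markers summed to 44100 to 64300 CPM in the mutants and 38700 to 44800 CPM in WT, nearly all of it from collagens. For the collagen gene Col1a2 0.499% of reads were unique, so these sums are uncertain.

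In edgeR's quasi-likelihood test 12 genes fell in the mutants and 1 rose at an adjusted p under 0.05, which is 0.105% of the genes tested (0.0967% lower and 0.00806% higher). All 13 had the same sign in each mutant and did not overlap WT. At an unadjusted p under 0.05 there were 1713 genes. Without regard to the test, all 4 mutant libraries lay above both WT libraries at 651 genes (5.25%) and below them at 601 (4.84%). S280A alone differed from WT at 3226 genes (26%), S280D alone at 5 (0.0403%), and 4 genes were called in each with the same sign (0.0322%), namely Cxcl1, Nfkbiz, Zc3h12a and Gbp5. The fifth gene of S280D was RT1-CE2, a class I histocompatibility gene. DESeq2 called 112 genes (0.903%), among them all 13, and 45 of its calls were lower (0.363%) and 35 higher (0.282%) with the same sign and no overlap. The edgeR count was sensitive to single libraries. Leaving out WT replicate 1 gave 5 genes and WT replicate 2 gave 4. Leaving out replicate 2 of S280A or of S280D gave 5 each, and leaving out YFP replicate 1 or 2 gave 30 or 29. Cxcl1, Nfkbiz and Zc3h12a passed whichever library was left out, Gbp5 failed only without WT replicate 2, and the other 9 each failed in at least 2 of these fits, the fit without WT replicate 2 among them. For S280A alone, leaving out WT replicate 1 gave 7 genes, WT replicate 2 gave 1309 and its own replicate 2 gave 6. For S280D alone the count became 13 without either YFP library, 1 and 2 without WT replicates 1 and 2, and 2 and 0 without S280D replicates 1 and 2.

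**Figure D1:**
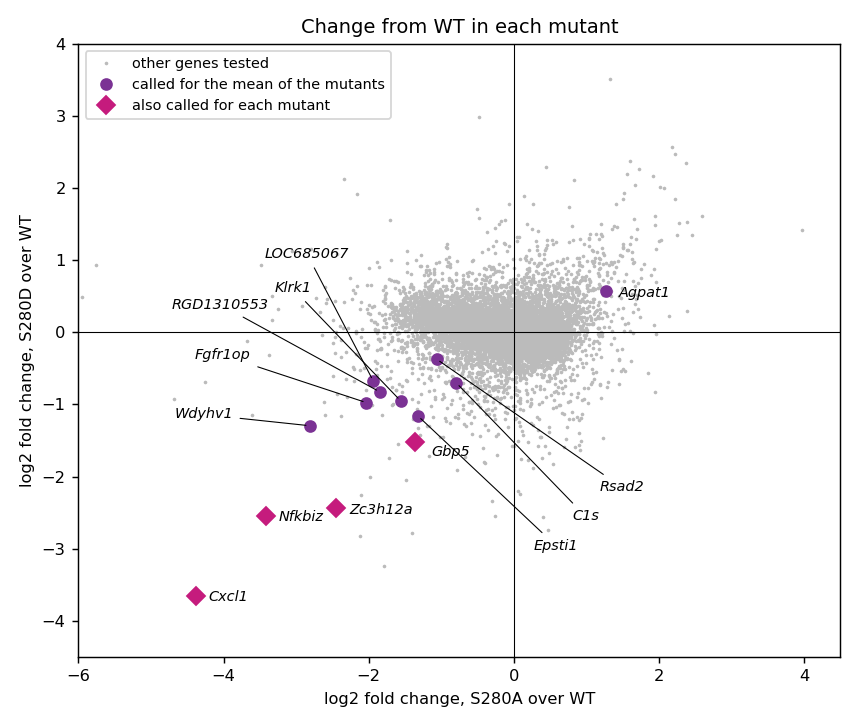
Log2 fold change of S280D over WT (vertical axis) against that of S280A over WT (horizontal axis), 1 point per gene tested; 1 gene lies outside the axes. Both changes share the WT libraries; the 12 genes lower in the mutants lie below and left of 0 and Agpat1 above and right of it, and diamonds mark the 4 genes called in each mutant alone.

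The chemokine and NF-κB genes gave the largest changes of the 13. Cxcl1, a chemokine that attracts neutrophils, had 0.211 and 0.725 CPM in S280A and 0.943 and 0.501 CPM in S280D, against 8.4 and 10.7 CPM in WT and 0.351 and 0.358 CPM in YFP. The mutant libraries overlapped YFP and lay far below WT, and in bulk RNA fewer expressing cells and less RNA per cell cannot be told apart. The log2 fold change of the mutants over WT was -4.01 ± 0.35 (SE, adjusted p = 7.47e-04), resting on 3 and 9 reads in S280A and 39 and 11 in S280D, against 168 and 180 reads in WT. The gene lies on chromosome 14, 18743685 to 18745457 (Rnor_6.0), and the marked stretch in its promoter is a match to the NF-κB consensus.

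Nfkbiz encodes IκBζ, a nuclear cofactor through which NF-κB switches on secondary response genes. It had 0.913 and 0.725 CPM in S280A and 1.64 and 1.37 CPM in S280D, against 8.4 and 9.36 CPM in WT and 0.468 and 1.12 CPM in YFP. Each mutant library lay well below both WT libraries. Over WT the log2 fold change was -2.98 ± 0.29 (adjusted p = 0.00166; chromosome 11, 47243342 to 47271487). Zc3h12a encodes Regnase-1, an RNase that degrades cytokine transcripts. It had 7.93 and 6.2 CPM in S280A and 7.59 and 6.6 CPM in S280D, against 35.1 and 42.3 CPM in WT and 6.38 and 10.6 CPM in YFP. The 4 mutant libraries lay close together, within the YFP range or just under it. The mutants differed from WT by a log2 fold change of -2.44 ± 0.19 (adjusted p = 5.46e-04; chromosome 5, 143111074 to 143120165).

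**Figure D2:**
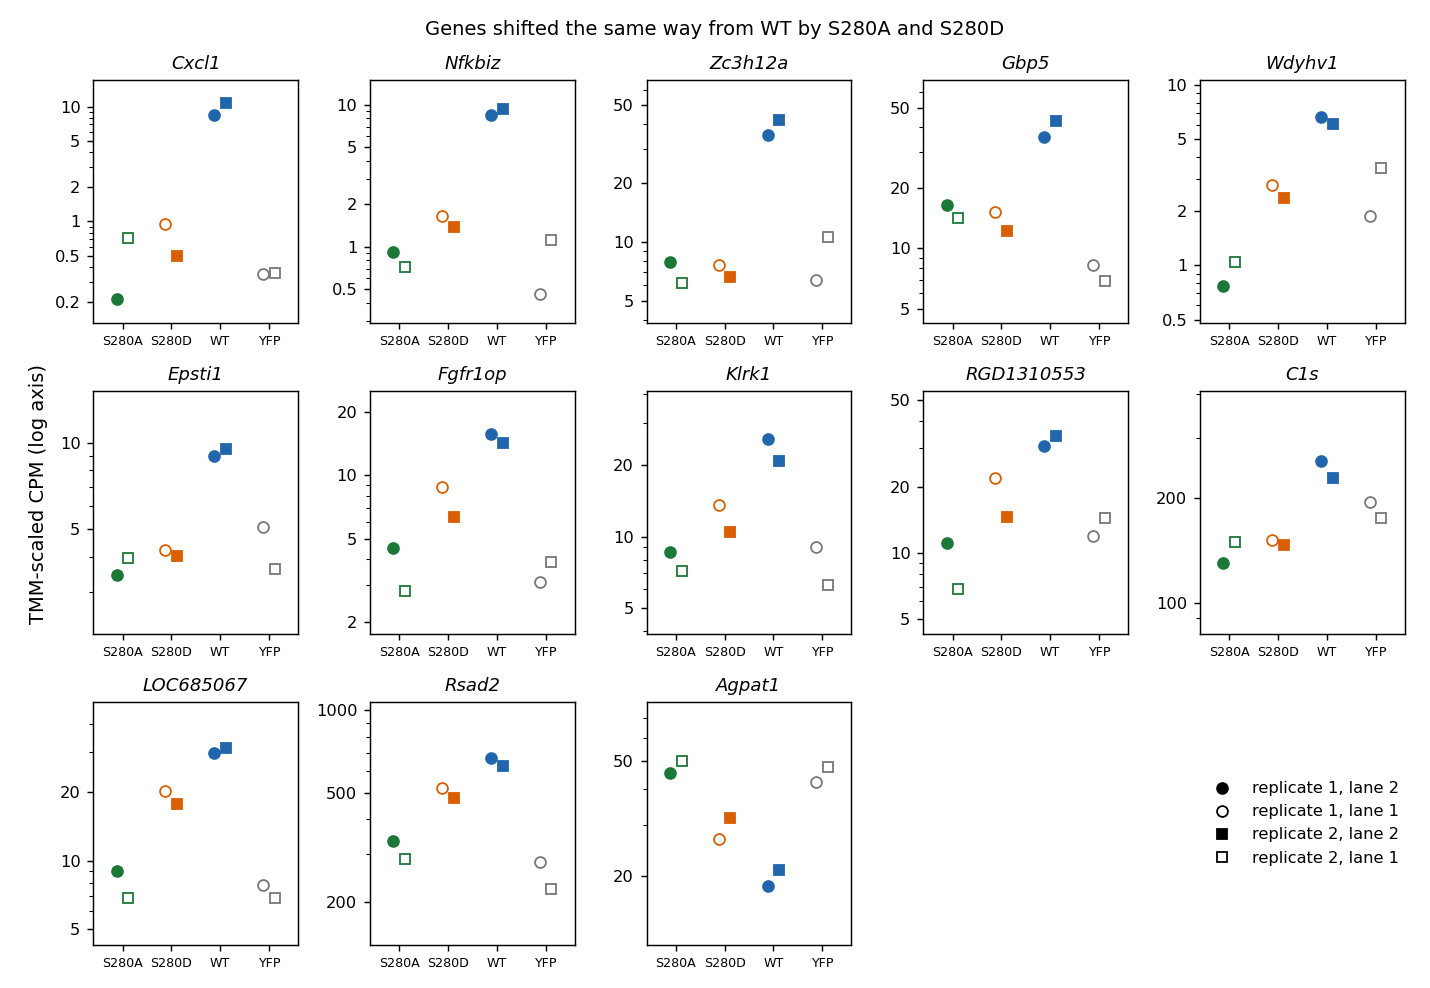
TMM-scaled CPM (log axis, own range per panel) of the 13 genes in each library, by construct; circles are replicate 1, squares replicate 2, filled symbols lane 2 and open symbols lane 1. The mutant libraries lie below both WT libraries in 12 panels and above them for Agpat1.

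The wider list of NF-κB targets and cytokines had 23 measured genes. Of these 3 fell (Cxcl1, Nfkbiz and Zc3h12a), 0 rose and 20 did not pass. In all 4 mutant libraries 11 (47.8%) lay below WT, where 4.84% of all genes did. This list and those that follow were written with earlier results of these data known. The 11 also include the 3 called genes, so the shares are a description and not a separate test. The median log2 fold change over the list was -0.35 for the mean of the mutants, -0.40 for S280A and -0.50 for S280D, beside -0.01 over all genes tested for the mean. DESeq2 called 7 members, 6 of them lower without overlap, where it called 0.903% of all genes, 0.363% lower without overlap. The others among the 11 were chosen for mention after their values were seen. Vcam1, an adhesion molecule for leukocytes, had 1.9 and 1.45 CPM in S280A and 1.89 and 1.55 CPM in S280D, against 5 and 5.19 CPM in WT, a log2 fold change of -1.57 ± 0.27 (adjusted p = 0.063). Ccl2, which attracts monocytes, had -1.99 ± 0.37 (adjusted p = 0.0963) and its neighbour in function Ccl7 -2.18 ± 0.46 (adjusted p = 0.141). Nfkbia, the classical IκB inhibitor, had 71.9 and 78.2 CPM in S280A and 55.3 and 48.6 CPM in S280D, against 93.6 and 105 CPM in WT, a log2 fold change of -0.67 ± 0.12 (adjusted p = 0.0963). Other NF-κB targets, also named after their values were seen, did not separate in this way. Il6 had 7.3 and 8.62 CPM in S280A and 17.2 and 11.3 CPM in S280D, against 11.7 and 13.8 CPM in WT, with the S280D libraries on both sides of WT. The inducible cyclooxygenase Ptgs2 had 27 and 19.2 CPM in S280A and 58.3 and 50.2 CPM in S280D, against 47.4 and 49.9 CPM in WT. The summed macrophage markers were 0 to 0.455 CPM in the mutants and 0.35 to 1.31 CPM in WT, with Ptprc at 0 reads in every library.

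The genes known to respond to interferon that fell were Gbp5, Rsad2 and Epsti1. Gbp5 is a GTPase of the guanylate-binding family that takes part in defence against intracellular microbes. It had 16.4 and 14.1 CPM in S280A and 15.2 and 12.2 CPM in S280D, against 35.6 and 43 CPM in WT and 8.26 and 6.85 CPM in YFP. The mutant libraries stood between YFP and WT without touching either. Its log2 fold change over WT was -1.44 ± 0.15 (adjusted p = 0.00261; chromosome 2, 248178389 to 248197160). LOC685067, which has no assigned symbol and lies outside the rule for named genes, is the next feature on the same chromosome, 22267 bases away with 0 features between. It had 8.99 and 6.84 CPM in S280A and 20.3 and 17.8 CPM in S280D, against 29.8 and 31.1 CPM in WT and 7.85 and 6.85 CPM in YFP, a log2 fold change of -1.31 ± 0.15 (adjusted p = 0.00441). S280A overlapped YFP here, and S280D lay between YFP and WT.

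Rsad2 encodes viperin, an antiviral protein. It had 334 and 286 CPM in S280A and 522 and 477 CPM in S280D, against 668 and 626 CPM in WT and 279 and 224 CPM in YFP, a log2 fold change of -0.72 ± 0.11 (adjusted p = 0.049; chromosome 6, 45655954 to 45669148). Epsti1, an interferon-induced protein, had 3.44 and 3.95 CPM in S280A and 4.21 and 4.01 CPM in S280D, against 8.95 and 9.48 CPM in WT and 5.09 and 3.63 CPM in YFP. Its log2 fold change was -1.24 ± 0.19 (adjusted p = 0.0482; chromosome 15, 60084918 to 60190363). Both lie just under the threshold, and the calls ended in 12 and 13 of the 20 alternatives for Rsad2 and Epsti1.

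Of 29 measured interferon response genes, 1 fell (Rsad2), 0 rose and 28 did not pass. Below WT in all 4 mutant libraries lay 6 (20.7%), Rsad2 among them, beside 4.84% of all genes. DESeq2 called 7 members, 4 of them lower without overlap, beside 0.903% and 0.363% of all genes. The list median was -0.20 for the mean of the mutants, -0.17 for S280A and -0.15 for S280D. Members varied in how S280D behaved, as genes chosen after their values were seen show. Ifit2, an antiviral protein that binds RNA, had 272 and 203 CPM in S280A and 775 and 660 CPM in S280D, against 730 and 722 CPM in WT, so that only S280A lay apart. Its mean log2 fold change was -0.81 ± 0.13 (adjusted p = 0.0509). Cxcl10, a chemokine for T cells, had 130 and 124 CPM in S280A and 112 and 121 CPM in S280D, against 192 and 221 CPM in WT. Its log2 fold change was -0.76 ± 0.21 (edgeR adjusted p = 0.241 and DESeq2 adjusted p = 0.0267). That value is uncertain, since 12.4% of its reads were unique and its locus overlaps Art3. On unique reads the change was -0.75 ± 0.23 (edgeR adjusted p = 0.227). The guanylate-binding genes, a family gathered after values were seen, had 5 members measured, of which 1 fell (Gbp5) where 0.0967% of all genes did, and 3 (60%) lay below WT in all 4 mutant libraries, where 4.84% did. The family was chosen for these values, so nothing is read from its counts or its median of -0.91.

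The genes of immune recognition came next. Klrk1 encodes NKG2D, an activating receptor known from natural killer cells. It had 8.57 and 7.17 CPM in S280A and 13.6 and 10.4 CPM in S280D, against 25.7 and 20.8 CPM in WT and 9.02 and 6.23 CPM in YFP, a log2 fold change of -1.25 ± 0.18 (adjusted p = 0.0308; chromosome 4, 163393217 to 163403653). C1s encodes a serine protease of the first complement component. It had 130 and 150 CPM in S280A and 152 and 147 CPM in S280D, against 256 and 229 CPM in WT and 196 and 176 CPM in YFP, a log2 fold change of -0.75 ± 0.10 (adjusted p = 0.0213; chromosome 4, 157143592 to 157155609). The mutants lay below YFP as well as below WT. Of 5 measured complement genes, also gathered after values were seen, 1 fell (C1s), where 0.0967% of all genes did, and 4 did not pass. Below WT in all 4 mutant libraries lay 3 (60%), beside 4.84% of all genes. Besides C1s these were C2_1 and C4b, with 7.24% and 34% of reads unique and overlapping loci, so their values are uncertain. The family was chosen with its values known, so nothing is read from its counts.

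Of 17 measured genes of class I antigen presentation, 0 rose, 0 fell and 17 did not pass. Below WT in all 4 mutant libraries lay 5 (29.4%), beside 4.84% of all genes. RT1-A2, a class I heavy chain, had 25.9 and 30.2 CPM in S280A and 24.9 and 22.6 CPM in S280D, against 60.5 and 48.2 CPM in WT, a log2 fold change of -1.07 ± 0.18 (adjusted p = 0.0626). RT1-A1 had -0.66 ± 0.13 (adjusted p = 0.109). DESeq2 called these 2 members lower without overlap, beside 0.363% of all genes. B2m, the light chain that all class I molecules share, was also named after its values were seen and had 3520 and 3510 CPM in S280A and 3550 and 3290 CPM in S280D, against 5000 and 4560 CPM in WT (-0.46 ± 0.13, adjusted p = 0.231). RT1-CE2 had 4.42 and 7.09 CPM in S280A and 2.9 and 2.28 CPM in S280D, against 9.85 and 9.77 CPM in WT. Its log2 fold change was -1.90 for S280D (adjusted p = 0.048) and -0.78 for S280A (adjusted p = 0.0541). The RT1 class I region, a family gathered after values were seen, had 20 measured genes. For the mean 0 passed, and the median was -0.43. Of the 20, 9 (45%) lay below WT in all 4 mutant libraries, beside 4.84% of all genes. The family was chosen with its values known, so nothing is read from its counts or its median. The RT1 genes have near-identical copies between which the counting could split reads, so their values are uncertain.

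Fgfr1op, Wdyhv1 and RGD1310553 fell as well. Fgfr1op, named Cep43 in RefSeq, encodes a centrosomal protein. It had 4.49 and 2.82 CPM in S280A and 8.82 and 6.37 CPM in S280D, against 15.8 and 14.3 CPM in WT and 3.1 and 3.88 CPM in YFP, a log2 fold change of -1.50 ± 0.21 (adjusted p = 0.0213; chromosome 1, 53122322 to 53152866). Wdyhv1, named Ntaq1 in RefSeq, encodes an enzyme that deamidates N-terminal glutamine for protein degradation. It had 0.772 and 1.05 CPM in S280A and 2.8 and 2.37 CPM in S280D, against 6.7 and 6.08 CPM in WT and 1.87 and 3.47 CPM in YFP, a log2 fold change of -2.05 ± 0.28 (adjusted p = 0.0213; chromosome 7, 97957003 to 97994586). The S280A libraries of Wdyhv1 lay below YFP, and its locus overlaps Atad2, from which reads may not be told apart. RGD1310553, named C9h2orf49 in RefSeq and outside the rule for named genes, had 11.1 and 6.84 CPM in S280A and 22 and 14.5 CPM in S280D, against 30.7 and 34.3 CPM in WT, a log2 fold change of -1.34 ± 0.20 (adjusted p = 0.0361).

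Agpat1 was the gene that rose. It encodes an acyltransferase that makes phosphatidic acid, a precursor of triglycerides and phospholipids. It had 45.4 and 49.8 CPM in S280A and 26.9 and 31.6 CPM in S280D, against 18.5 and 20.9 CPM in WT and 42.3 and 47.4 CPM in YFP. S280A overlapped YFP, and S280D lay between YFP and WT. Relative to WT the log2 fold change was 0.92 ± 0.13 (adjusted p = 0.0241; chromosome 20, 4369178 to 4378269). The value is uncertain, since 16.9% of its reads were unique, its locus overlaps Egfl8 and a copy of C4a, and on unique reads it did not pass (0.70 ± 0.21, adjusted p = 0.208). In the list of triglyceride synthesis and storage, with 20 genes measured, 1 rose (Agpat1), 0 fell and 19 did not pass. DESeq2 called 2 members higher without overlap, beside 0.282% of all genes. They were Agpat1 and Mgll, the lipase of monoglycerides, named after its values were seen. Mgll had 27.1 and 25.9 CPM in S280A and 19.6 and 25.5 CPM in S280D, against 14.8 and 14.2 CPM in WT (0.75 ± 0.16, edgeR adjusted p = 0.147).

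Because both WT libraries were read in lane 2, the 13 genes were examined within that lane. There S280A replicate 1 and S280D replicate 2 stand against both WT libraries. That fit took the 2 mutant libraries as 1 group, so a difference between S280A and S280D adds to its spread. Since the 13 have every mutant library on one side of both WT libraries, their direction within the lane is fixed by that choice, and these values reuse the libraries that chose them. The log2 fold change of Cxcl1 within lane 2 was -4.63 ± 0.40, of Zc3h12a -2.42 ± 0.21, of Nfkbiz -2.92 ± 0.30, of Gbp5 -1.47 ± 0.22 and of Agpat1 0.97 ± 0.22. Adjusted, 0 of 12113 genes passed in edgeR (0%), with 395 (3.26%) at an unadjusted p under 0.05. The smallest adjusted p of the 13 was 0.059, for Cxcl1 and Zc3h12a. With the mutants as 1 group in all libraries 2 genes passed, so lane, pooling and fewer libraries cannot be told apart here. With lane as a covariate 2 genes passed (0.0161%), Cxcl1 at -4.74 ± 0.41 (adjusted p = 0.00312) and Zc3h12a at -2.42 ± 0.26 (adjusted p = 0.0132). Nfkbiz and Gbp5 had adjusted p of 0.0546 and 0.0577 in that fit. WT and YFP each lie in 1 lane, so its lane term rests on the mutant libraries alone. Among these, lane and replicate cannot be told apart. The estimate that moved most was that of Cxcl1, by 0.72 on the log2 scale.

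**Figure D3:**
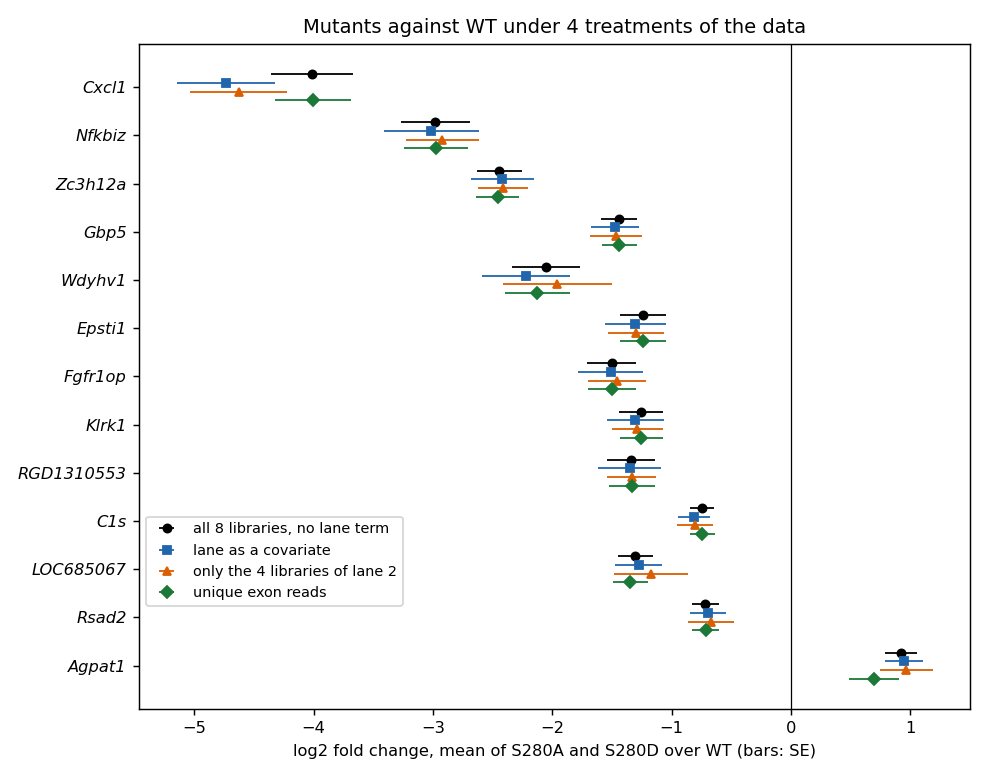
Log2 fold change of the mean of the mutants over WT (horizontal axis, bars are SE) for each of the 13 genes in all libraries, with lane as a covariate, in lane 2 alone and on unique exon reads. In lane 2 alone S280A and S280D were taken as 1 group. With lane as a covariate the estimate of Cxcl1 moves most, by 0.72; Agpat1 on unique reads, at 0.70, is the lowest of its 4 values.

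The 2 mutants were then set against each other at these genes. S280D against S280A differed at 4873 genes overall (39.3%) and at 6 of the 13. That overall count was 1254 without S280A replicate 2 and 1330 without S280D replicate 1. At each of the 6 the S280D level was closer to WT than the S280A level. The log2 difference was 1.52 ± 0.39 for Wdyhv1 (adjusted p = 0.0122), 1.27 ± 0.18 for LOC685067 (adjusted p = 0.00178) and 0.69 ± 0.14 for Rsad2 (adjusted p = 0.00397). At the other 7 genes no difference passed, which does not show that the mutants act alike. For Zc3h12a the difference was 0.01, with a 95% confidence interval of -0.54 to 0.55, and for Gbp5 -0.15 with an interval of -0.56 to 0.25. The intervals were wider for Cxcl1, at 0.73 and -0.51 to 1.96, and for Nfkbiz, at 0.88 and -0.04 to 1.80. All 13 genes were called in S280A against WT, where 26% of all genes were, and 4 in S280D against WT, where 0.0403% were. At 12 of the 13 the change was larger in S280A, with Gbp5 as the exception. Both contrasts entered the mean that chose the 13, so these counts are not a separate test of them.

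The YFP control gives the level of each gene without a delivered receptor. WT differed from YFP at all 13 genes, where 19.6% of all genes did, and stood above it at 12. S280A differed from YFP at 0 of the 13 (0.0403% of all genes) and S280D at 6 (30.7% of all genes). For Cxcl1 the log2 fold change over YFP was 0.35 ± 0.67 in S280A, 1.08 ± 0.55 in S280D and 4.73 ± 0.48 in WT. For Zc3h12a it was -0.27 ± 0.25 in S280A, -0.26 ± 0.24 in S280D and 2.18 ± 0.24 in WT. For Gbp5 it was 1.02 ± 0.20 in S280A, 0.86 ± 0.19 in S280D and 2.38 ± 0.19 in WT. The WT values over YFP and the mutant values over WT share the WT libraries. The YFP and WT libraries also differ in lane, so lane and construct cannot be told apart between them.

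**Figure D4:**
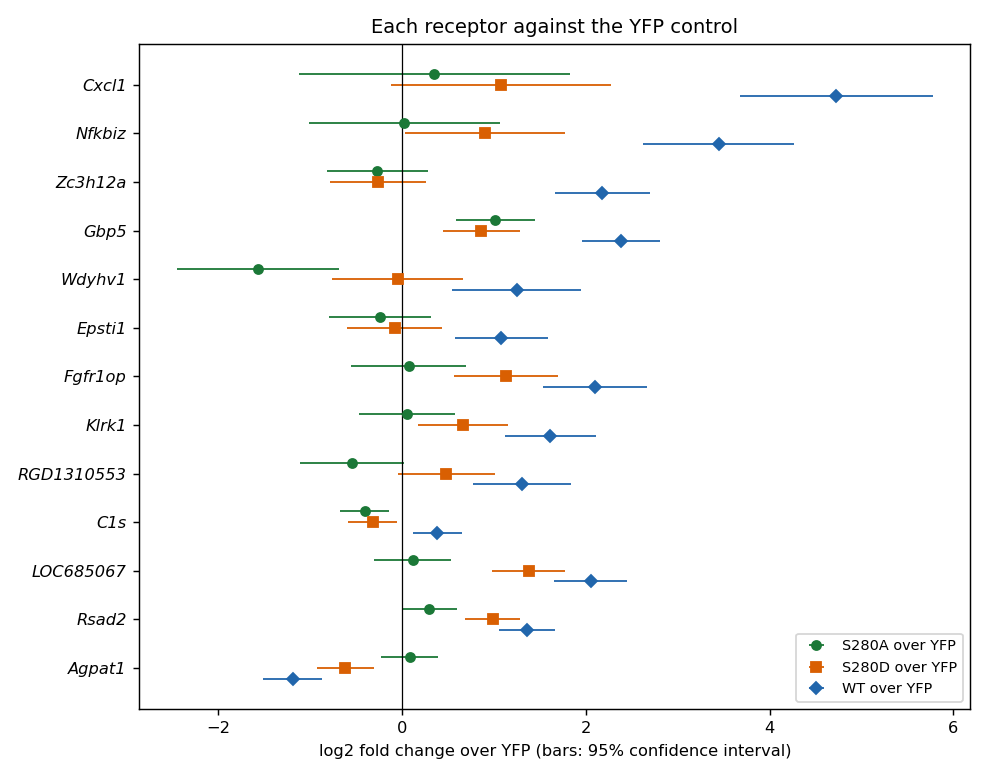
Log2 fold change over YFP (horizontal axis, bars are 95% confidence intervals) of S280A, S280D and WT for the 13 genes. WT lies above 0 for 12 genes and below it for Agpat1; the S280A intervals include 0 for 9 of the genes.

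Reads in introns, counted apart from exon reads in the same libraries, were tested as a separate readout. None of 12988 genes passed in edgeR (550 at an unadjusted p under 0.05; DESeq2 called 2). Of the 12 genes that fell, 11 could be tested on intron reads, and 9 of these had a negative log2 fold change. Some of the 9 were near 0, such as LOC685067 at -0.02 ± 0.49 and Fgfr1op at -0.11 ± 0.27. The 12 were chosen as lower on exon reads of these libraries. The share of negative changes among all 12988 genes was not counted, so nothing is read from the 9. Rsad2 had 84 and 56 intron reads in S280A and 690 and 304 in S280D, against 318 and 250 in WT, and a scaled log2 fold change of -0.76 ± 0.18 (unadjusted p = 7.51e-04). By mutant it was -1.35 ± 0.22 in S280A and -0.18 ± 0.20 in S280D, so the mean rests on S280A. For Gbp5, at -1.19 in S280A and -1.18 in S280D, the change was -1.19 ± 0.34 (unadjusted p = 0.00327) and for Epsti1 -1.49 ± 0.46 (unadjusted p = 0.00587), with -2.28 ± 0.64 in S280A and -0.70 ± 0.47 in S280D. For Nfkbiz it was -0.75 ± 0.59 and for Zc3h12a -0.30 ± 0.41, beside -2.98 ± 0.29 and -2.44 ± 0.19 on exon reads. By mutant the introns of Zc3h12a had -0.61 ± 0.52 in S280A and 0.02 ± 0.45 in S280D. A change as large as that on its exon reads was thus not seen in its introns. Why exon and intron values differ was not tested. Cxcl1 had 15 intron reads over all libraries and was not tested.

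Genes known as PPAR targets did not move together. Of 30 measured, 0 rose, 0 fell and 30 did not pass, with 3 (10%) above and 1 (3.33%) below WT in all 4 mutant libraries, beside 5.25% and 4.84% of all genes, and a median of 0.09 (0.08 in S280A and 0.22 in S280D). Ucp2, a mitochondrial carrier, had 39.6 and 44.9 CPM in S280A and 29.8 and 36.2 CPM in S280D, against 22.8 and 29.9 CPM in WT (0.50 ± 0.15, adjusted p = 0.262). Decr1, an enzyme for the oxidation of unsaturated fatty acids, had 0.37 ± 0.13 (adjusted p = 0.312). Angptl4, a secreted lipase inhibitor and a sensitive PPAR target, was named after its values were seen. It had 7.72 and 4.91 CPM in S280A and 19 and 18.3 CPM in S280D, against 7.6 and 9.65 CPM in WT and 3.34 and 1.99 CPM in YFP, so that S280D lay above WT while S280A reached from below WT into its range. In mitochondrial fatty acid oxidation 0 of 22 genes passed, with a median of 0.07, and 4 (18.2%) lay above WT in all 4 mutant libraries.

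Cholesterol biosynthesis and the extracellular matrix held 10 genes each above WT, none of which edgeR called. Of 25 measured cholesterol genes 0 passed in edgeR and 1 in DESeq2 (Acat2), 10 (40%) lay above WT in all 4 mutant libraries, where 5.25% of all genes did, and the median was 0.31 (0.48 in S280A and 0.21 in S280D). Acat2 had 35.6 and 37.1 CPM in S280A and 33 and 33.1 CPM in S280D, against 24.9 and 23.7 CPM in WT (0.51 ± 0.12, edgeR adjusted p = 0.19 and DESeq2 adjusted p = 0.0494). Mvk, which phosphorylates mevalonate, had 14 and 14.7 CPM in S280A and 8.73 and 9.15 CPM in S280D, against 7.95 and 5.36 CPM in WT (0.76 ± 0.18, adjusted p = 0.19). YFP stood at 34.3 and 41.7 CPM for Acat2 and 11.7 and 12.9 CPM for Mvk. In the extracellular matrix 0 of 36 genes passed in edgeR and 10 (27.8%) lay above WT, among them Thbs2 (0.68 ± 0.17, adjusted p = 0.204). DESeq2 called 1 member higher, elastin (Eln), named after its values were seen (0.63 ± 0.17, edgeR adjusted p = 0.244 and DESeq2 adjusted p = 0.0125). It called 1 lower, tenascin (Tnc), which lay below WT (-0.51 ± 0.10, edgeR adjusted p = 0.114 and DESeq2 adjusted p = 0.0146). The summed fibroblast markers, nearly all of the sum from collagens and uncertain for Col1a2, were also higher in S280A than in WT. Their part in the list was not tested. The calcium channel gene Cacna1g had 85.5 and 84 CPM in S280A and 89.2 and 99.7 CPM in S280D, against 59.1 and 61.5 CPM in WT and 60.3 and 60.4 CPM in YFP (0.57 ± 0.10, edgeR adjusted p = 0.0807 and DESeq2 adjusted p = 8.11e-04). Tnnt2, cardiac troponin T and a cardiomyocyte marker, had 208 and 222 CPM in S280A and 214 and 225 CPM in S280D, against 129 and 165 CPM in WT (0.56 ± 0.16, edgeR adjusted p = 0.262 and DESeq2 adjusted p = 0.0412). Other cardiomyocyte markers differed, with Tnni3 below WT in all 4 mutant libraries at under 1 CPM (-0.97 ± 0.49, edgeR adjusted p = 0.403) and Gata4 at 0.12 ± 0.19 (edgeR adjusted p = 0.792).

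Of 33 lists, 3 held a gene that passed in edgeR and 30 held none, while 10 held a DESeq2 call. In several lists the medians of the mutants had opposite signs, although no member of the next 3 lists passed for S280D alone. The mitochondrially encoded genes had a median of -0.85 in S280A and 0.22 in S280D, the 20 measured glycolysis genes 0.35 and -0.12 in that order, and the 26 measured cytosolic ribosomal protein genes 0.37 and -0.06. The share of exon reads from mitochondrially encoded genes was 0.791% and 0.49% in S280A and 1.66% and 1.4% in S280D, against 1.37% and 1.17% in WT. Mki67, the proliferation marker, had 48.5 and 25.3 CPM in S280A and 124 and 82.9 CPM in S280D, against 95.8 and 90.1 CPM in WT. The 26 measured splicing factors all had a negative mean change, as had 6449 of the 12407 genes tested. Of the 26, 1 (3.85%) lay below WT in all 4 mutant libraries, beside 4.84% of all genes. Their median was -0.20 for the mean of the mutants, -0.34 for S280A and 0.05 for S280D.

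**Figure D5:**
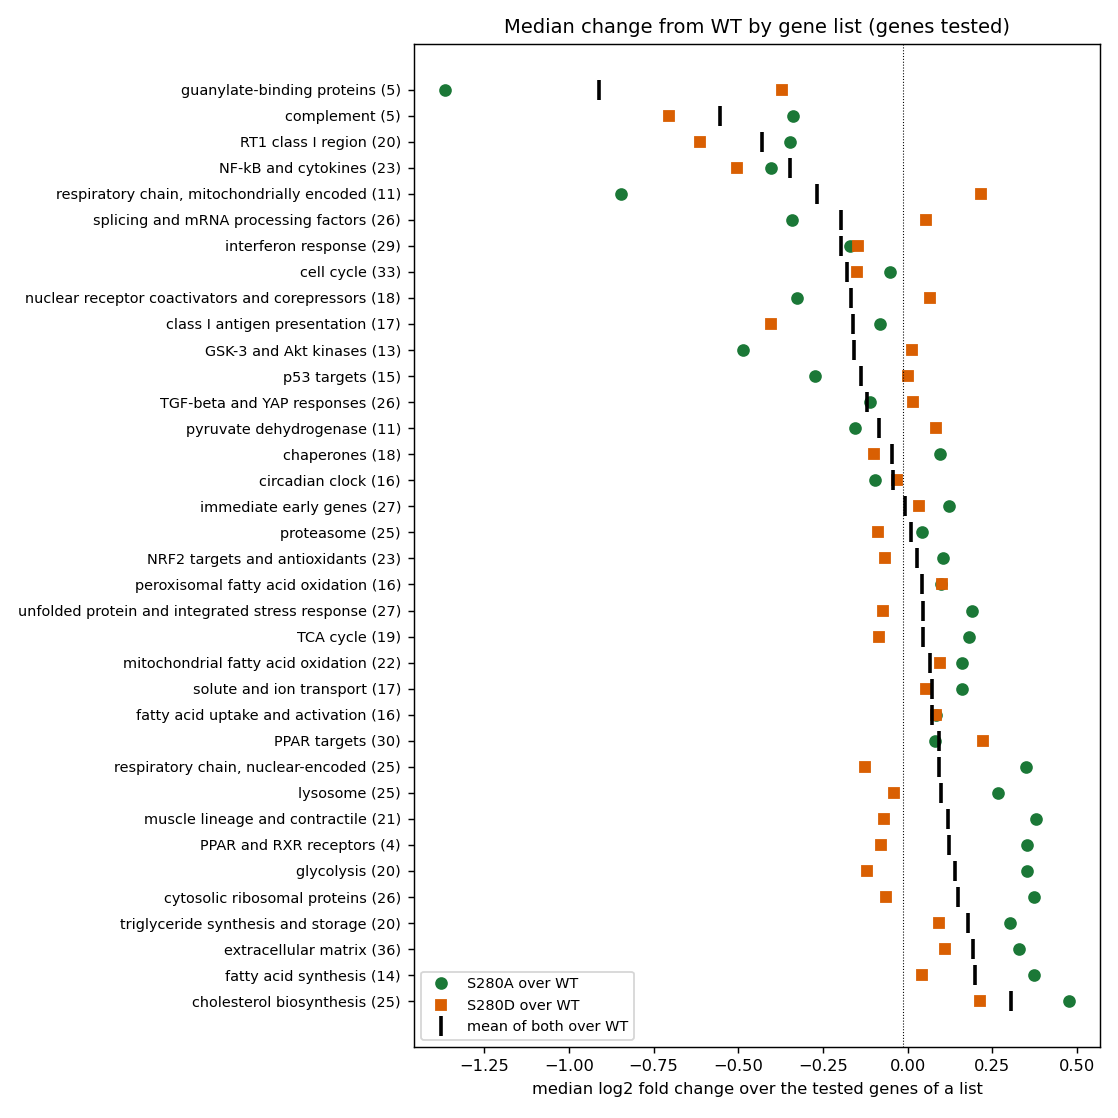
Median log2 fold change over WT (horizontal axis) of the tested genes of each list and of the guanylate-binding, complement and RT1 class I genes, for S280A (circles), S280D (squares) and the mean of both (bars), with the number of genes tested in brackets; the dotted line is the median of all genes, -0.01. The NF-κB list has negative medians in each mutant and the cholesterol list positive ones, while the mitochondrially encoded genes have -0.85 in S280A and 0.22 in S280D.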

How the data were processed

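Poly(A) RNA of 8 H9C2 libraries was sequenced after strand-specific library preparation, per the labels' protocols. The authors deposited raw counts per gene and library without normalization, per the file headers, for total exon, unique exon and total intron reads. The genome build is Rnor_6.0, per the submitters' processing notes. The aligner, the annotation and any use of strand in counting were not given in the sources used here. Coordinates were raised by 1 base at the start to be 1-based. Of 32258 features 20259 had exon reads, and the labels gave the groups. WT replicate 2 bears that number in its title and the number 3 in its description.

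The test on total exon counts used edgeR 4.0.16 with R 4.3.3 (filterByExpr, TMM, quasi-likelihood, all 8 libraries with 1 coefficient per group, 4 residual degrees of freedom). The contrast was the mean of S280A and S280D minus WT, two-sided, with Benjamini-Hochberg adjustment over all genes tested and a threshold of 0.05. Adjusted p-values belong to this test unless DESeq2 1.42.0 is named, and ± is the SE of a log2 fold change. The smallest library held 14018785 exon reads, so low CPM rest on few reads, and reads amplified by PCR are not independent molecules. Chi-square tests found no duplicated library. The members and lists were chosen with earlier results of these data known, and no set test was run. The lists held 769 symbols, of which 727 matched the table. Genes were named by a rule: Ppara, genes called and shifted the same way with a mean of at least 1 CPM and an assigned symbol, genes called in each mutant alone, and in a list up to 4 members that passed or, where none did, up to 2 with the smallest p. Names outside the rule are marked in the text, are markers or come from the list medians. Of the table's names, 18462 matched RefSeq of build GRCr8, which was used for names and promoters, and sequence motifs were searched with Python 3.11.15. The scripts were tested on simulated data. The alternatives were RLE size factors, other filters on low counts, DESeq2, other sets of libraries, the mutants as 1 group, the replicate block, lane, a threshold of 1.5-fold, unique reads, an exon length offset and leaving out each library.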

Additional observations from a re-analysis of the deposited data

Results flagged for a closer look

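At 6 of the 13 genes the 2 mutants differed from each other in edgeR's test of S280D against S280A, a test that 39.3% of all genes passed. The log2 difference S280D minus S280A was 1.52 for Wdyhv1, 1.27 for LOC685067, 1.06 for Fgfr1op, 1.02 for RGD1310553 and 0.69 for Rsad2, with the S280A level the lower one, and -0.7 for Agpat1, with the S280A level the higher one. Adjusted p-values were 0.00178 to 0.0122. At all 6 the S280D libraries lay between those of S280A and those of WT.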

How the results depend on the processing

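Each alternative was compared with the main test of the mean of the mutants against WT. The 13 called genes became 576 without a filter on low counts, 25 in the 6 libraries with a receptor construct, 0 in lane 2 alone, 2 with the mutants as 1 group of 4, 2 with lane as a covariate, 4 with a threshold of 1.5-fold and 112 with DESeq2. Those of them shifted the same way numbered 168, 23, 0, 2, 2, 4 and 80 in the same order. For lane 2 alone the mutants were also taken as 1 group. Leaving out 1 library gave 4 to 30 called genes and 4 to 26 shifted the same way. With RLE size factors or a filter at 1 CPM 11 genes were called. For S280A against WT the count was 1704 in lane 2, 993 with lane as a covariate, 20 with a threshold of 1.5-fold and 6 to 3859 leaving out 1 library. For S280D against WT it was 129 without a filter, 13 in the 6 libraries, 24 in lane 2, 3 with the replicate block, 1 with lane as a covariate, 2 with a threshold of 1.5-fold, 39 with DESeq2 and 0 to 13 leaving out 1 library. For S280D against S280A it was 1213 in lane 2, 733 with a threshold of 1.5-fold and 1254 to 5223 leaving out 1 library. On intron reads it was 36 without a filter, 2 with a filter at 1 CPM, 2 with DESeq2 and 0 to 6 leaving out 1 library. The cause of these moves was not tested. Of the 20 alternatives, Cxcl1 and Zc3h12a were called in 19, all but lane 2 alone, Nfkbiz in 17 and Gbp5 in 16, and the others in 7 to 14. Ppara ranged from -0.54 to 0.44 on the log2 scale when 1 library was left out. It was reversed at 0.44 without WT replicate 2 (adjusted p = 0.564) and was called in no fit. The replicate numbers were not taken to pair the samples, since neither the labels nor 2 replicates a group establish it. Correlations of same-numbered deviations were 0.118 to 0.205 among WT, S280A and S280D, and -0.173 to -0.0916 between YFP and these. With the replicate block 16 genes were called, 12 of the 13 among them. A group that lost a library kept 1 sample, assumed to vary like the other groups. Genes with few reads, such as Cxcl1 in S280A, are limited by depth.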
